A study of Mus musculus with 14 samples.

Results

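The miRNAs described here are the 10 mature arms of miR-431, miR-433, miR-127, miR-434 and miR-136. Their 5 hairpins lie on the strand opposite the imprinted gene Rtl1 on mouse chromosome 12. They were chosen by name, as both arms (5p and 3p) of each hairpin, and make up 10 of the 1123 mature miRNAs in the files. All 10 were detected in every library and passed the filter on low values, as did 638 of the 1123 miRNAs. The RNA came from dorsal root ganglia (DRG), which hold the cell bodies of sensory neurons, of 2 inbred mouse strains. The injured groups, C57BL/6 injured (3 libraries) and CAST/Ei injured (3 libraries), came from adult male mice, 8 to 10 weeks old, after a crush of the left sciatic nerve that lasted 30 s. The uninjured groups were CAST/Ei naive (3 libraries) and C57BL/6 naive (5 libraries), with no age or sex given for them in the labels. In all 4 groups the ganglia were dissociated before RNA extraction. The labels name no transgene or drug, and the time after the crush is not given in the sources used here.

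Imprinted genes are expressed from the copy of 1 parent. In the Dlk1-Dio3 domain the protein-coding gene Rtl1, which derives from a retrotransposon and is needed for the placenta, is read from the paternal chromosome, while the long RNAs that carry the miRNAs are read from the maternal chromosome. A hairpin is cut into a 5p and a 3p arm, and usually the arm that is loaded into an Argonaute protein accumulates and finds its targets by its seed, the bases from 2 to 8. Because these miRNAs are transcribed across Rtl1 in the opposite direction, they also match the Rtl1 transcript over their whole length, and such matches can direct its cleavage. In sensory neurons miR-431 has been reported to respond to nerve injury and to promote axon growth by lowering Kremen1, an antagonist of Wnt signalling.

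The mature sequences carry these relations and are printed 5′ to 3′ from RefSeq (GRCm38.p6), where all 10 arms were matched by name, with the seed in capitals.
miR-431-5p: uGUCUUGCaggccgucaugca
miR-431-3p: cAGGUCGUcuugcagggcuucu
miR-433-5p: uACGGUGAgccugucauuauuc
miR-433-3p: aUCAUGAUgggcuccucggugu
miR-127-5p: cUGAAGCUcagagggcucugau
miR-127-3p: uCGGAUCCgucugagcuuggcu
miR-434-5p: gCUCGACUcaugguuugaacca
miR-434-3p: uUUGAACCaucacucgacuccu
miR-136-5p: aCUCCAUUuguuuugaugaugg
miR-136-3p: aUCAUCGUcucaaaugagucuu
The 10 seeds all differ, and 0 of them is shared with another mature miRNA in the files. No other mature miRNA came nearer than 5 mismatches over 15 or more aligned bases, compared on the same strand.

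The hairpin of miR-431, whose arms the results below turn on, spans chr12:109590447-109590537 on the plus strand of GRCm38.p6. It is shown as its RNA with the 5p arm and then the 3p arm in capitals.
miR-431 hairpin: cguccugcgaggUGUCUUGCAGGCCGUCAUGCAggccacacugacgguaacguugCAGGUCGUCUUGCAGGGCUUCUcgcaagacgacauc
All 10 arms lie opposite the coding sequence of Rtl1, within 1 exon of the minus strand (coding sequence chr12:109590172-109595403, GRCm38). Each arm is perfectly complementary to the Rtl1 transcript at exactly 1 place. The sites of the arms for which a change or a change of balance was called are given as the transcript's bases, on the strand of Rtl1.
Rtl1 site opposite miR-431-5p: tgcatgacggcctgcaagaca
Rtl1 site opposite miR-431-3p: agaagccctgcaagacgacctg
Rtl1 site opposite miR-433-5p: gaataatgacaggctcaccgta
Rtl1 site opposite miR-136-3p: aagactcatttgagacgatgat
A match of this kind is a description of the sequence, and Rtl1 RNA itself is not measured by small RNA libraries.

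**Figure D1:**
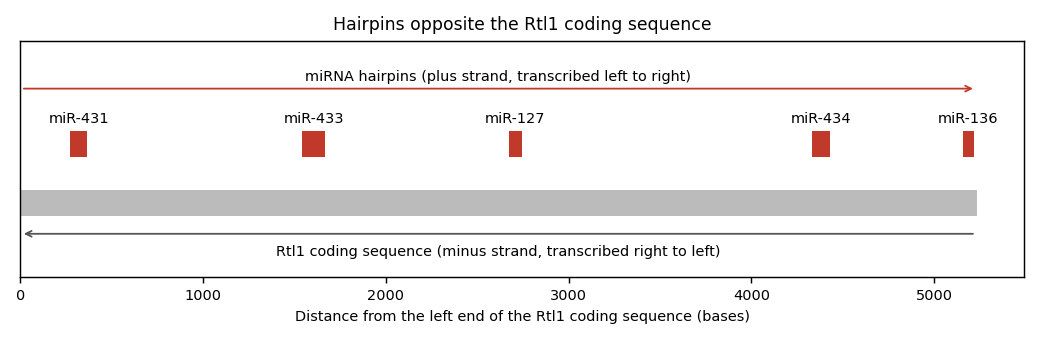
Positions of the 5 hairpins (boxes, plus strand) and of the Rtl1 coding sequence (grey bar, minus strand), with distance from the left end of the coding sequence in bases on the x axis. All 5 hairpins fall within the coding sequence, miR-431 at the end where Rtl1 transcription finishes and miR-136 where its coding sequence begins.

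The libraries held between 4007706 and 15642360 reads, and the arms together took between 0.429% and 0.930% of a library's total. Even the rarest arm had at least 66 reads in each library. Levels are given as CPM, read counts scaled to a common library size, here by TMM factors. Each group's libraries are called biological replicates by the study's design text. C57BL/6 naive 4 and 5 stood apart. Their rank correlation with the other 12 libraries was 0.871 to 0.926, and with each other 0.951, while the others correlated at 0.925 or more among themselves. Both held less of the myelinating glia miRNAs (4 markers summing to 8628 and 8044 CPM) than C57BL/6 naive 1 to 3 (18222 to 35829 CPM). Neuronal markers were higher in both (165182 to 169286 CPM, against 136173 to 146637 CPM in naive 1 to 3), as were epithelial ones (up to 1584 CPM, against 219 to 263 CPM), and erythrocyte markers were lower (6762 to 6803 CPM against 9683 to 25813 CPM). Where a log2 change or difference stated for one of the 10 arms moved by over 1.5 times or turned its sign without these libraries, the value without them is given beside it. All 8 neuronal marker miRNAs were detected in every library, and so were all 4 of myelinating glia. The neuronal sum was lower after injury, at 111040 to 115424 CPM in C57BL/6 injured and 136173 to 169286 CPM in C57BL/6 naive. In CAST/Ei the sum was 106148 to 115077 CPM in injured and 135929 to 150915 CPM in naive libraries. The myelinating glia sum was 36608 to 45396 CPM in C57BL/6 injured and 8044 to 35829 CPM in C57BL/6 naive, and 30720 to 32124 CPM in CAST/Ei injured and 37058 to 42868 CPM in CAST/Ei naive libraries. Skeletal muscle marker miRNAs, which ganglia should lack, summed to 8874 to 9580 CPM in C57BL/6 injured and 5491 to 16012 CPM in C57BL/6 naive, and to 6372 to 7412 CPM in CAST/Ei injured and 8805 to 11374 CPM in CAST/Ei naive libraries. Leukocyte, erythrocyte and epithelial marker sums ranged over 2802 to 7545 CPM, 6762 to 25813 CPM and 211 to 1584 CPM in the 14 libraries. In CAST/Ei the erythrocyte sum was 7212 to 8867 CPM in injured and 9088 to 12815 CPM in naive libraries. The part of these shifts in the results below was not tested, and in RNA pooled from the dissociated cells a change in the number of cells of a type and a change of RNA per cell cannot be told apart.

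Over all 14 libraries miR-434-3p was the most abundant of the arms, with a mean of 2487 CPM. It was followed by miR-136-5p at 1411, miR-127-3p at 1084, miR-433-3p at 793 and miR-434-5p at 779 CPM. miR-136-3p averaged 366 CPM, miR-431-5p 186, miR-127-5p 177, miR-431-3p 36.9 and miR-433-5p 32.6 CPM. The order differed between groups. miR-431-5p stood above miR-127-5p in C57BL/6 injured (285 and 181 CPM) and CAST/Ei injured (340 and 184 CPM), but below it in C57BL/6 naive (88.5 and 175 CPM) and CAST/Ei naive DRG (94.4 and 171 CPM). In C57BL/6 naive DRG the mean of miR-127-3p (1490 CPM) also exceeded that of miR-136-5p (1094 CPM). That order held in naive 4 (1771.8 and 245.7 CPM) and naive 5 (3516.8 and 577.7 CPM). In each of naive 1 to 3 miR-127-3p lay below miR-136-5p. Neighbours in the pooled order mostly differed by less than their spread: the SD over libraries was 958 CPM for miR-434-3p, 591 for miR-136-5p and 774 for miR-127-3p. The 5p arm dominated in miR-431 and miR-136, and the 3p arm in miR-433, miR-127 and miR-434, with a single library of miR-434 as the exception.

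**Figure D2:**
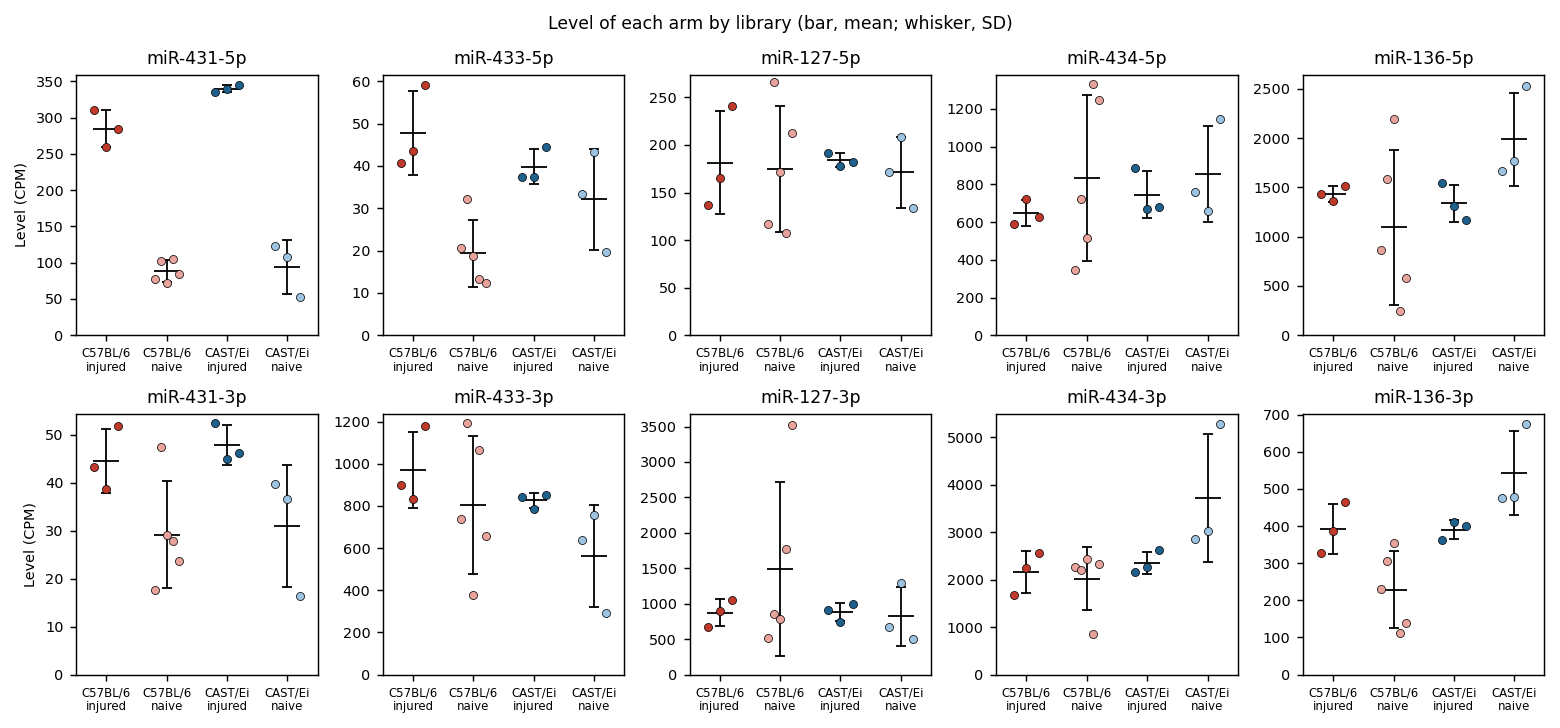
Level of each arm in CPM (linear y axes from 0, 1 panel per arm, 5p above 3p) in every library, grouped as C57BL/6 injured, C57BL/6 naive, CAST/Ei injured and CAST/Ei naive, with the mean (bar) and SD (whisker). miR-431-5p is the arm whose injured libraries (259.9 to 345.0 CPM) lie clear of all naive ones (52.8 to 123.0 CPM) in both strains.

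miR-431-5p rose after sciatic nerve crush in both strains. In C57BL/6 it stood at 310.5, 259.9 and 284.3 CPM in the injured libraries, against 78.0, 103.0, 71.7, 105.5 and 84.5 CPM in the naive ones. Every injured library lay above every naive one, and C57BL/6 naive 4 and 5 (105.5 and 84.5 CPM) lay close to the other naive libraries. The means were 284.9 ± 25.3 CPM in injured (SD, n = 3) and 88.5 ± 15.1 CPM in naive DRG (n = 5), a ratio of 3.22. In CAST/Ei it reached 335.4, 339.2 and 345.0 CPM in injured libraries, against 123.0, 107.4 and 52.8 CPM in naive ones. The 3 injured values lay within 10 CPM of each other, and the groups did not overlap. The CAST/Ei means were 339.9 ± 4.84 CPM in injured and 94.4 ± 36.9 CPM in naive DRG (SD, n = 3 each), a ratio of 3.60. In limma-trend on log2(CPM + 1), with Benjamini-Hochberg adjustment over the 638 miRNAs, the log2 change was 1.69 ± 0.27 (SE, adjusted p = 0.00283) in C57BL/6 and 1.93 ± 0.30 (adjusted p = 0.00269) in CAST/Ei. It passed the threshold of 0.05 under all 28 alternative settings in each strain, with log2 changes of 1.51 to 1.83 in C57BL/6 and 1.56 to 2.19 in CAST/Ei. By p it took place 3 among all miRNAs tested in C57BL/6 and place 2 in CAST/Ei.

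The size of that rise did not differ detectably between the strains. The CAST/Ei rise minus the C57BL/6 rise was 0.24 on the log2 scale (95% interval −0.63 to 1.10, adjusted p = 0.808 in limma-trend), which leaves room for a difference in either direction. Averaged over the strains the log2 change was 1.81 ± 0.20 (adjusted p = 6.52e-05).

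The other arm of the same hairpin showed smaller differences. miR-431-3p was at 43.2, 38.7 and 51.8 CPM in C57BL/6 injured and at 17.7, 47.4, 29.1, 27.9 and 23.7 CPM in C57BL/6 naive libraries. Naive library 2 lay within the injured range, so the groups overlapped. In CAST/Ei it was at 52.6, 45.0 and 46.2 CPM in injured and 39.8, 36.7 and 16.3 CPM in naive libraries, without overlap. Neither difference passed the test (log2 0.66 ± 0.34, adjusted p = 0.252 in C57BL/6, and 0.71 ± 0.38, adjusted p = 0.676 in CAST/Ei, limma-trend).

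The balance between the arms of miR-431 shifted toward 5p after injury, a measure taken within each library so that library scaling cancels. The 5p arm made up 84.6% to 87.8% of miR-431 in C57BL/6 injured and 68.5% to 81.5% in C57BL/6 naive libraries. In CAST/Ei the share was 86.4% to 88.3% in injured and 74.5% to 76.4% in naive libraries. Each injured library thus exceeded each naive library of its strain. As log2 of 5p over 3p, the group means were 2.66 ± 0.20 in C57BL/6 injured (SD, n = 3) and 1.63 ± 0.42 in C57BL/6 naive (n = 5). They were 2.80 ± 0.13 in CAST/Ei injured and 1.59 ± 0.06 in CAST/Ei naive libraries (n = 3 each). The ratio rose by 1.03 in C57BL/6 and by 1.22 in CAST/Ei, or 1.12 on average. A two-sided exact permutation test of injury within strain gave p = 0.000893, the smallest that its 1120 relabelings allow (adjusted p = 0.00446 over the 5 hairpins).

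None of the other 4 hairpins passed this test after injury, with adjusted p-values of 0.674 to 0.937. The share of 5p in miR-433, where 3p is the main arm, was 4.31% to 4.96% in C57BL/6 injured and 1.23% to 4.75% in C57BL/6 naive libraries. In miR-127 it was 15.7% to 18.7% in C57BL/6 injured and 5.70% to 23.6% in C57BL/6 naive, the low values being those of naive 4 and 5. miR-434 had 19.7% to 26.1% in C57BL/6 injured and 13.2% to 61.1% in C57BL/6 naive libraries, and naive 4 alone had more 5p than 3p. In miR-136 the 5p arm held 76.6% to 81.4% in C57BL/6 injured and 68.5% to 86.1% in C57BL/6 naive libraries. In CAST/Ei the 5p share of miR-433 was 4.26% to 4.97% in injured and 4.97% to 6.30% in naive libraries, and that of miR-127 was 15.5% to 19.2% in injured and 13.8% to 21.2% in naive ones. CAST/Ei miR-434 had 20.6% to 29.1% in injured and 17.8% to 21.0% in naive libraries, and miR-136 had 74.5% to 81.0% in injured and 77.7% to 79.0% in naive ones. The change of log2 5p over 3p differed in sign between the strains in 3 of these hairpins. It was 0.95 in C57BL/6 and −0.30 in CAST/Ei for miR-433, 0.54 and −0.09 for miR-127, and −0.36 and 0.44 for miR-434. For miR-127 and miR-434 the C57BL/6 sign rested on naive 4 and 5. In miR-127 these stood at −4.03 and −4.04, against −2.18 to −1.69 in naive 1 to 3 and −2.42 to −2.12 in injured libraries. In miR-434 they stood at 0.65 and −0.90, against −2.71 to −1.61 in naive 1 to 3 and −2.03 to −1.50 in injured libraries. Between the strains 0 of the 5 hairpins passed the same test. The lowest p was that of miR-433 (difference 0.60, exact permutation p = 0.0616, adjusted p = 0.308). Its strain difference was 1.23 in naive and −0.02 in injured libraries. C57BL/6 naive 4 and 5 had the lowest log2 5p over 3p of miR-433, at −6.23 and −5.62. Naive 1 to 3 stood at −5.17 to −4.25.

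**Figure D3:**
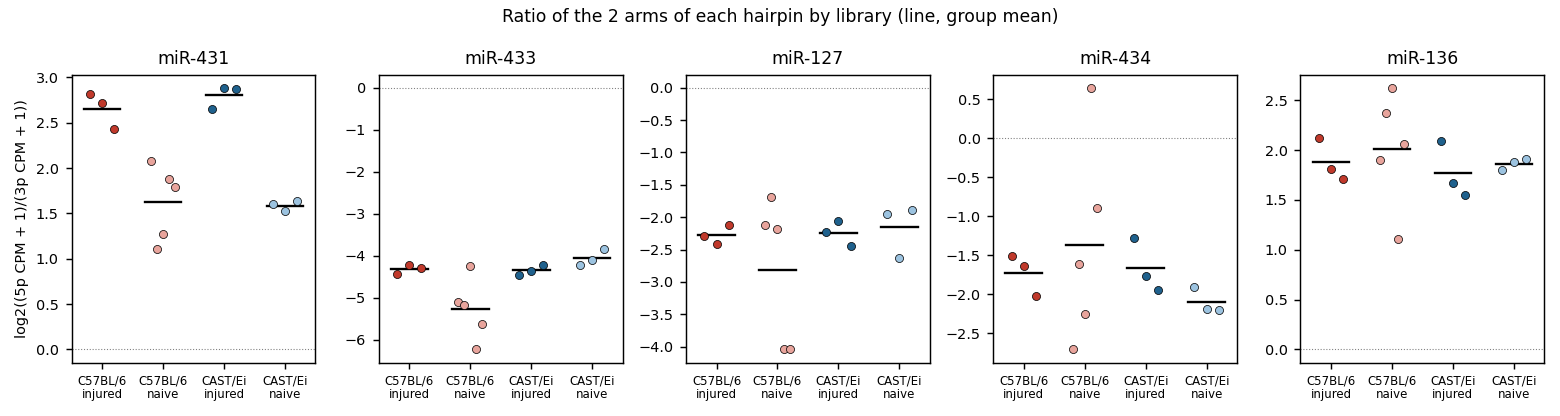
log2 of the 5p over the 3p level (each CPM + 1) of the 5 hairpins in every library, in the order C57BL/6 injured, C57BL/6 naive, CAST/Ei injured and CAST/Ei naive (lines, group means; dotted line at 0, equal arms; y axes differ between panels). In miR-431 the injured means are 2.66 and 2.80 against naive means of 1.63 and 1.59.

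miR-433-5p, the minor arm of its hairpin, rose after injury in C57BL/6. It was at 40.6, 43.4 and 59.2 CPM in C57BL/6 injured, against 20.6, 32.1, 18.7, 13.2 and 12.4 CPM in C57BL/6 naive libraries, with no overlap. Naive 4 and 5 were the lowest. The means were 47.7 ± 10.0 CPM in injured and 19.4 ± 7.90 CPM in naive DRG, and the log2 change was 1.32 ± 0.33 (adjusted p = 0.0440, limma-trend). The call is near the threshold: it was lost in 20 of 28 alternatives (adjusted p over all 28 from 0.0150 to 0.244), and without naive 4 and 5 the log2 change was 0.99 (adjusted p = 0.0818). Left out alone, any C57BL/6 injured or any CAST/Ei injured library, C57BL/6 naive 1, 4 or 5, or CAST/Ei naive 1 ended the call. In CAST/Ei it was at 37.4, 37.4 and 44.5 CPM in injured and 33.5, 43.3 and 19.6 CPM in naive libraries, which overlapped (log2 0.37 ± 0.37, adjusted p = 0.870). The difference between the strains' changes was −0.95 (adjusted p = 0.529), or −0.63 without naive 4 and 5, so a response in C57BL/6 alone is not shown. The main arm, miR-433-3p, was at 901.1, 832.9 and 1177.0 CPM in C57BL/6 injured and ranged from 375.7 to 1191.6 CPM (median 736.2) in C57BL/6 naive libraries. CAST/Ei libraries had 841.4, 784.2 and 851.4 CPM in injured and 639.6, 755.7 and 291.4 CPM in naive libraries. Neither of its changes passed (log2 0.36 in C57BL/6 and 0.66 in CAST/Ei, adjusted p = 0.564 and 0.746).

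With 2 of 10 arms higher and 0 lower, C57BL/6 injury compares with a background of 2.35% of the 638 miRNAs called higher and 0.784% called lower. In CAST/Ei, 1 of 10 arms was called higher and 0 lower, against 1.1% and 0% of all miRNAs. Arms whose groups did not overlap numbered 2 higher and 0 lower in C57BL/6, beside 8.62% and 6.27% of all miRNAs. They numbered 3 higher and 3 lower in CAST/Ei, beside 10.2% and 16.5%. The median log2 change of the arms was 0.51 in C57BL/6 and 0.17 in CAST/Ei, and over all 638 miRNAs it was 0.12 and −0.09.

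miR-127, whose loss in mice raises Rtl1 and disturbs the placenta, showed no change after injury that passed the test. miR-127-5p averaged 181 ± 54.1 CPM in C57BL/6 injured and 175 ± 66.3 CPM in C57BL/6 naive libraries. It averaged 184 ± 7.41 CPM in CAST/Ei injured and 171 ± 37.1 CPM in CAST/Ei naive libraries. Its log2 changes were 0.09 (95% interval −0.57 to 0.75) in C57BL/6 and 0.12 (−0.61 to 0.86) in CAST/Ei, the C57BL/6 value being −0.09 under upper quartile scaling and 0.01 without naive 4 and 5. The more abundant miR-127-3p was at 671.1, 890.8 and 1049.5 CPM in C57BL/6 injured and at 516.6, 861.2, 783.9, 1771.8 and 3516.8 CPM in C57BL/6 naive libraries. The 2 highest values were those of naive 4 and 5. The log2 change was −0.45 ± 0.49 with these libraries and 0.28 without them, and neither passed (adjusted p = 0.599 with them). CAST/Ei libraries had 907.5, 745.3 and 993.1 CPM in injured and 666.6, 1297.9 and 498.1 CPM in naive libraries, which overlapped.

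miR-434-5p was at 591.2, 724.4 and 628.0 CPM in C57BL/6 injured and 347.3 to 1332.4 CPM in C57BL/6 naive libraries, where naive 4 and 5 were again the highest. Its log2 change was −0.19 there, but 0.35 without naive 4 and 5 (adjusted p = 0.504). It was −0.17 in CAST/Ei, where injured libraries had 886.9, 667.1 and 679.3 CPM and naive ones 757.5, 660.1 and 1144.1 CPM. The CAST/Ei value was positive with plain totals (0.10) and with the 3 most abundant miRNAs ignored in scaling (0.07). Its sister arm miR-434-3p was at 1678.2, 2251.7 and 2563.8 CPM in C57BL/6 injured. The C57BL/6 naive libraries had 2276.0, 2214.3, 2444.0, 847.6 and 2325.9 CPM, with naive 4 far below the rest. Its C57BL/6 log2 change was 0.17 (adjusted p = 0.774), or −0.12 without naive 4 and 5. In CAST/Ei all 3 injured libraries (2162.1, 2270.0 and 2622.6 CPM) lay below all 3 naive ones (2854.0, 3028.0 and 5275.3 CPM). That log2 difference of −0.61 ± 0.38 did not pass (adjusted p = 0.746).

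Both arms of miR-136 gave positive changes after injury in C57BL/6 and negative ones in CAST/Ei, and none of these passed the test. miR-136-5p was at 1427.8, 1359.4 and 1514.5 CPM in C57BL/6 injured and 864.1, 1587.3, 2192.9, 245.7 and 577.7 CPM in C57BL/6 naive libraries. Naive 4 and 5 were the lowest, and the log2 change of 0.76 became −0.01 without them. In CAST/Ei it was at 1541.2, 1310.2 and 1168.5 CPM in injured and 1662.2, 1772.2 and 2530.1 CPM in naive libraries, a log2 difference of −0.55. For miR-136-3p the C57BL/6 injured libraries had 327.0, 385.8 and 463.8 CPM and the naive ones 230.3, 306.0, 354.2, 113.1 and 137.7 CPM. Its log2 change was 0.90 ± 0.34 (adjusted p = 0.133), or 0.41 without naive 4 and 5, and it passed when naive 3 was left out (1.09, adjusted p = 0.0397). CAST/Ei injured libraries had 361.4, 410.4 and 399.6 CPM, all below the naive ones at 475.9, 479.3 and 674.4 CPM, a log2 difference of −0.46 ± 0.38. The interaction for miR-136-3p was −1.35 (95% interval −2.43 to −0.28), at an unadjusted p of 0.0171 in limma-trend and an adjusted p of 0.529. Without C57BL/6 naive 4 and 5 it was −0.87 (95% interval −1.53 to −0.20, adjusted p = 0.437). By limma-trend 0 of the 10 arms, and 0% of the 638 miRNAs in either direction, passed the interaction test, with 8.15% at an unadjusted p under 0.05, and 0 of the 10 passed it in edgeR or DESeq2.

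miR-136-3p was the arm that differed between the strains without injury. It averaged 543 ± 114 CPM in CAST/Ei naive (SD, n = 3) and 228 ± 104 CPM in C57BL/6 naive DRG (n = 5), a ratio of 2.38, and the groups did not overlap. The log2 difference was 1.36 ± 0.34 (adjusted p = 0.0178, limma-trend), and without C57BL/6 naive 4 and 5 it was 0.87 (adjusted p = 0.0189). The call was lost in 4 of 28 alternatives. Among these were leaving out CAST/Ei naive 1 (adjusted p = 0.0512) and CAST/Ei naive 3 (0.1004). miR-136-5p was at 1988 ± 473 CPM in CAST/Ei naive and 1094 ± 789 CPM in C57BL/6 naive DRG (log2 1.21 ± 0.51, adjusted p = 0.119), with overlap. Without C57BL/6 naive 4 and 5 the difference was 0.44 (adjusted p = 0.317), whereas it passed when C57BL/6 naive 3 was left out (adjusted p = 0.0258).

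The miR-136 hairpin has an antisense partner: miR-136-5p overlaps miR-3071-3p by 20 bases and miR-136-3p overlaps miR-3071-5p by 19 bases on the opposite strand. Whether the counting used strand is not given in the sources used here. The files give each arm its own value. How far reads of an arm were counted for its partner cannot be told, so the levels of these arms are uncertain. miR-3071-5p, the partner of miR-136-3p, was at 17.4 to 24.2 CPM in CAST/Ei naive and 6.02 to 14.7 CPM in C57BL/6 naive libraries, and it also passed (log2 1.01, adjusted p = 0.0324). miR-3071-3p averaged 235 ± 34.4 CPM in CAST/Ei naive and 154 ± 62.1 CPM in C57BL/6 naive libraries.

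miR-434-3p also lay higher in every CAST/Ei naive library (2854.0 to 5275.3 CPM) than in every C57BL/6 naive one (847.6 to 2444.0 CPM). Its log2 difference of 0.92 ± 0.34 missed the threshold (adjusted p = 0.0806). With the replicate number as a block, fitted over all 14 libraries, it was 0.63 and passed (adjusted p = 0.0360). miR-136-3p passed in that fit too (0.87, adjusted p = 0.00582), so that 2 arms rather than 1 were called. No label says that the replicate numbers pair libraries, and C57BL/6 naive 4 and 5 have no partner in the block. Leaving out naive 4 and 5 without a block also gave 0.63 for miR-434-3p, which did not pass (adjusted p = 0.0927, limma-trend).

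In naive DRG, then, 1 of 10 arms was called higher in CAST/Ei and 0 lower, against 5.96% and 5.17% of all miRNAs. Non-overlapping arms numbered 2 higher and 0 lower, beside 9.4% and 7.05% of all miRNAs. The other 9 arms did not pass. miR-431-5p, at 123.0, 107.4 and 52.8 CPM in CAST/Ei naive and 71.7 to 105.5 CPM in C57BL/6 naive libraries, had a log2 difference of 0.02 (95% interval −0.56 to 0.60), whose sign changed under each of the other scalings. Its difference was 0.09 without C57BL/6 naive 4 and 5. miR-433-5p stood 0.71 apart (adjusted p = 0.155), or 0.39 without those libraries (adjusted p = 0.406). The difference of miR-127-3p was −0.63 (adjusted p = 0.407) and turned to 0.10 without them (adjusted p = 0.854). That of miR-434-5p was 0.17 with them and 0.71 without (adjusted p = 0.783 and 0.0986).

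After injury 0 of the 10 arms passed between the strains by limma-trend, edgeR or DESeq2, against 0.784% of all miRNAs called higher and 2.51% called lower in CAST/Ei by limma-trend. At an unadjusted p under 0.05 the share of all miRNAs was 8.78%. The log2 differences ran from −0.24 (miR-433-5p) to 0.26 (miR-431-5p), and the lowest adjusted p was 0.974. miR-431-5p was the arm without overlap, at 335.4 to 345.0 CPM in CAST/Ei injured and 259.9 to 310.5 CPM in C57BL/6 injured libraries, where 15.4% of all miRNAs lay wholly higher and 20.5% wholly lower in CAST/Ei. miR-136-3p, different in naive DRG, stood at 390.5 ± 25.8 CPM in CAST/Ei injured and 392.2 ± 68.6 CPM in C57BL/6 injured libraries (log2 0.01, 95% interval −0.80 to 0.81).

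**Figure D4:**
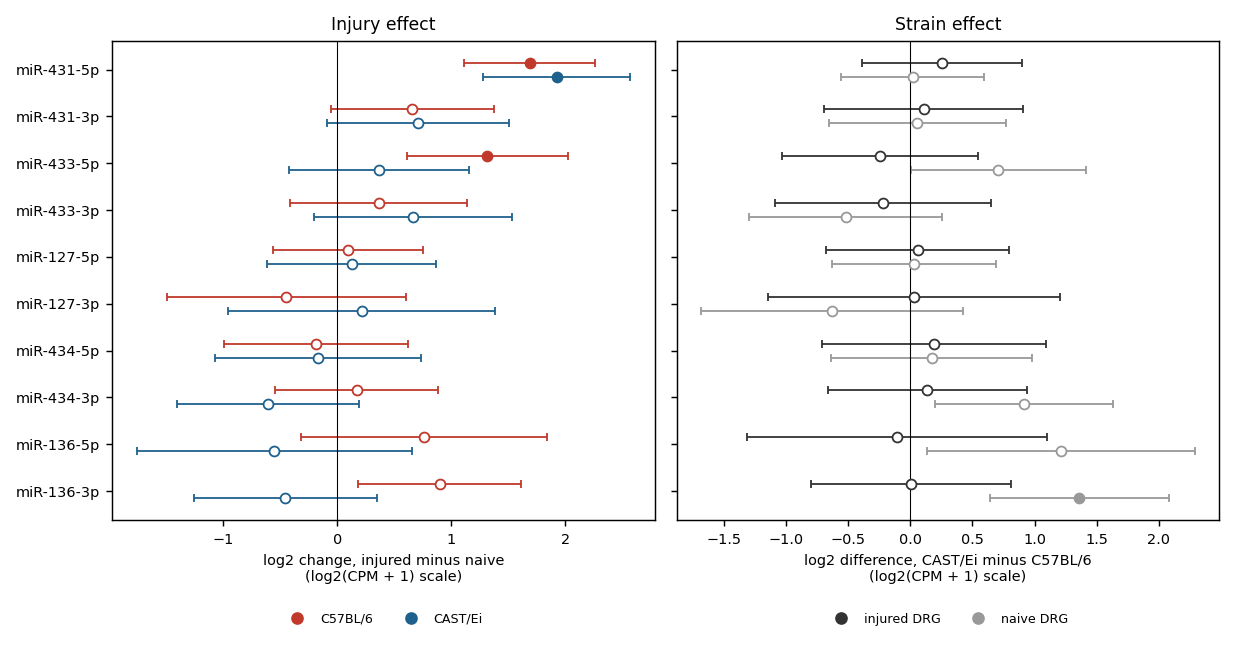
log2 differences of the 10 arms on the log2(CPM + 1) scale with 95% intervals from limma-trend, for injury (left, injured minus naive, C57BL/6 above CAST/Ei) and strain (right, CAST/Ei minus C57BL/6, injured DRG above naive DRG). Filled points passed the adjusted threshold: miR-431-5p in both strains (1.69 and 1.93), miR-433-5p in C57BL/6 (1.32) and miR-136-3p between naive strains (1.36).

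The arms did not vary as a unit across the 14 libraries. Over the 40 pairs of arms from different hairpins, Pearson's r of log2(CPM + 1) had a median of 0.20 and ran from −0.65 to 0.79, given as a description since the points share libraries. The 5 pairs from the same hairpin ran from −0.13 in miR-434 to 0.91 in miR-136, with a median of 0.43. Without C57BL/6 naive 4 and 5 the median was 0.77 for these and 0.14 for the pairs from different hairpins. The miR-434 pair then had r = 0.54. The pair at −0.65, miR-127-3p and miR-136-3p, then had 0.10, while miR-433-3p and miR-434-3p had −0.68. miR-431-3p followed miR-431-5p at r = 0.81, and miR-433-5p followed it at 0.74. miR-434-3p and miR-136-5p, from neighbouring hairpins, had r = 0.79.

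The miRNAs outside the group whose levels ran most like miR-431-5p over the 14 libraries were miR-6540-5p (r = 0.92), miR-493-5p (0.88), miR-485-3p (0.88), miR-21a-3p (0.87) and miR-6540-3p (0.86). Of these 5, miR-493-5p and miR-485-3p lie in the Dlk1-Dio3 domain. Nearest to the mean of the 10 arms were miR-344h-3p (0.91), miR-299a-3p (0.83), miR-7689-3p (0.82), miR-376b-3p (0.81) and miR-3065-5p (0.80), of which miR-299a-3p and miR-376b-3p lie in the domain. Besides the 10 arms, the domain holds 83 of the 638 miRNAs that passed the filter. Some of those named were scarce. miR-21a-3p averaged 0.62 CPM in CAST/Ei naive and 2.17 CPM in C57BL/6 naive libraries, and miR-344h-3p averaged 1.38 CPM in C57BL/6 naive ones.

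The rest of the Dlk1-Dio3 domain contributed 97 further arms, of which 83 passed the filter. After injury in C57BL/6 the 83 had a median log2 change of 0.51, like that of the 10 arms. Of the 83, 4 rose and 0 fell, against 2.35% and 0.784% of all miRNAs. The 4 that rose were miR-493-5p (log2 1.09, adjusted p = 0.0172, limma-trend), miR-154-3p (1.04, adjusted p = 0.0172), miR-379-5p (1.21, adjusted p = 0.0194) and miR-323-3p (0.95, adjusted p = 0.0449). Without naive 4 and 5 the counts were 12 higher and 0 lower, with the replicate block 15 and 0, in edgeR 3 and 0, and in DESeq2 9 higher and 2 lower. With only the groups compared, 0 passed. The count was 0 when C57BL/6 injured 1, 2 or 3 was left out, 10 without C57BL/6 naive 5 and 15 without C57BL/6 naive 3. In CAST/Ei 0 of the 83 passed in limma-trend, against 1.1% of all miRNAs called higher and 0% called lower, and the median was 0.14. In edgeR 1 passed, and 2 passed in DESeq2, in limma-trend with the replicate block, and in limma-trend without C57BL/6 naive 4 and 5. Averaged over strains 8 rose and 0 fell, led by miR-1188-5p (log2 1.20, adjusted p = 0.00372) and miR-154-3p (0.87, adjusted p = 0.00590). The averaged count was 5 in edgeR, 4 under upper quartile scaling, and 16 both with the replicate block and, in the fit without it, when C57BL/6 naive 4 and 5 were left out. With 1 library left out it was 4 to 9, and it was 4 or 5 without any 1 of the injured libraries of either strain, C57BL/6 naive 1, or CAST/Ei naive 1 or 3. The averaged injury effect called 3.13% of all miRNAs higher and 1.1% lower, and 1 of the 10 Rtl1-antisense arms, miR-431-5p.

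Between naive strains 4 of the 83 arms were higher in CAST/Ei and 7 lower, against 5.96% and 5.17% of all 638 miRNAs. The lower ones included miR-341-3p (log2 −4.89, adjusted p = 2.99e-05), miR-1188-5p (−3.14, adjusted p = 2.77e-06) and miR-673-5p (−1.59, adjusted p = 0.00301), and the higher ones miR-376b-5p (2.10, adjusted p = 0.00706) and miR-379-5p (1.18, adjusted p = 0.0119). The count of 11 became 4 to 6 without CAST/Ei naive 1, 2 or 3, and 7 without C57BL/6 injured 2 or 3, C57BL/6 naive 4 or CAST/Ei injured 3. It became 23 without C57BL/6 naive 3, 3 with only the groups compared and 7 with a filter of 10 CPM. Over the settings other than leaving out 1 library it ran from 3 to 15. In injured DRG 3 arms were lower in CAST/Ei and 0 higher, against 2.51% and 0.784% of all miRNAs. Those 3 were miR-341-3p (−5.90), miR-1188-5p (−2.98) and miR-673-5p (−1.81). With only the groups compared 2 were higher and 10 lower, and with the replicate block 0 and 5. Between the strains the 10 Rtl1-antisense arms differed by at most 1.36 on the log2 scale. The CAST/Ei sequence of these arms and of the other Dlk1-Dio3 arms was not checked. Any loss of CAST/Ei reads to sequence variants was therefore not assessed, and the strain differences are differences in counted reads.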

How the data were processed

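The deposited files hold, for each of 14 libraries, 1 signal value per mature miRNA, which the authors' file names call CPM. Per the labels' protocols, RNA came from the miRVana kit and libraries from the Ion Total RNA-Seq kit, and reads were aligned with Bowtie2, per the submitters' processing notes. Genome build and miRNA release are not given in the sources. Divided by the step that 1 read makes, all deposited values (100%) came out whole within 1e-06 reads. Read counts were recovered this way, and the signal equals CPM on TMM-scaled library sizes. The design was written for plain CPM and its test was not altered. The step of C57BL/6 injured 1 (0.0996 CPM) lies near a round decimal, but its values came out whole within the same tolerance as those of the other libraries.

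Values were tested as log2(CPM + 1) for the 638 miRNAs that reached 5 CPM in 3 or more libraries, in 1 limma-trend fit over the 4 groups (R 4.3.3, limma 3.58.1) with 6 contrasts, two-sided, with Benjamini-Hochberg adjustment and a threshold of 0.05. Fold changes on this scale understate those of low miRNAs. edgeR 4.0.16 and DESeq2 1.42.0 on recovered reads, other scalings, filters, pseudocounts and libraries left out were alternatives. Arm ratios used exact permutation tests. P-values measure the spread between these libraries. The scripts were tested on simulated data.

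Replicate numbers come from the sample titles. Deviations from group means of same-numbered libraries correlated at 0.104 to 0.114 between the naive strains and −0.19 to 0.02 between the injured strains. For injury they correlated at −0.081 to 0.31 in C57BL/6 and −0.04 to 0.15 in CAST/Ei. The labels do not say that the numbers pair libraries, and these correlations do not show it. The members, lists and rules were chosen with earlier results of these data known. All 10 arms are named. Other Dlk1-Dio3 arms past the threshold are named by lowest adjusted p, at most 5 per contrast, and 5 miRNAs by likeness. Sequences are from RefSeq GRCm38.p6.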

Additional observations from a re-analysis of the deposited data

Results flagged for a closer look

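miR-434-3p in C57BL/6 naive 4 stood apart from the other 4 libraries of its group, at 847.6 CPM where the others had 2214.3 to 2444.0 CPM. On the log2(CPM + 1) scale the gap to its nearest neighbour was 0.907 of the group's range, above Dixon's 95% critical value for 5 libraries. Across 15 such checks chance flags about 1 in 20. The same library had the highest miR-434-5p of its group, at 1332.4 CPM, and stood apart from the other 12 libraries together with naive 5. Without naive 4 and 5 the log2 difference of miR-434-3p between CAST/Ei naive and C57BL/6 naive was 0.63 (limma-trend, adjusted p = 0.0927), and with them 0.92.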

How the results depend on the processing

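The rise of miR-431-5p passed in every alternative run for both strains, 28 each, and so did the count of 1 called arm in CAST/Ei injury. The count of 2 called arms in C57BL/6 injury became 1 with no filter, with a filter of 1 CPM, under each of the 4 other scalings, with edgeR, with only the groups compared, with the replicate block and without C57BL/6 naive 4 and 5, in each case because miR-433-5p was lost. Leaving out 1 library gave 1 to 3 arms, the 3 without C57BL/6 naive 3. Between naive strains the count of 1 became 0 when scaling ignored the 3 most abundant miRNAs and with only the groups compared, 2 with the replicate block, and 0 to 2 when 1 library was left out. For the averaged injury effect it was 2 with DESeq2 (miR-433-5p added, adjusted p = 0.0419) and 1 to 2 when 1 library was left out. The count of 1 hairpin with a changed arm balance became 0 with the replicate block: its 6 pairs allow 64 sign patterns, so that the adjusted p of a lone hairpin cannot go below 0.156, although the mean shift of miR-431 was 1.19. The block changed no other call among the arms. Another scaling moved the median of all miRNAs by up to 0.25 (log2, plain totals, CAST/Ei injury) and −0.17 (upper quartile, C57BL/6 injury). Of 1660 values of single arms under alternatives 108 changed sign, 0 of them with a call on either side. At the lowest depth, 3 reads equal 0.760 CPM, well below every arm. Groups of 3 libraries limit what could be called.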
